A study of Mus musculus with 4 samples.

Results

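The regions described here are 100-kb windows of the mouse autosomes that kept the smallest share of their methylation in germ cells without Np95. Of 23996 windows with listed cytosines, 23816 had at least 100 CpGs with a value in every sample, and 14346 of these also had a mean level of at least 70% in both controls and are called eligible. A window was chosen when knockout replicate 1 over control replicate 1 (pair 1) and knockout replicate 2 over control replicate 2 (pair 2) were both at most 0.515, or 51.5%. The rule chose 1494 windows, 10.4% of the eligible windows, and left 12852. The retained share below is the mean of the knockouts over the mean of the controls, in percent.

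The samples were germ cells of 21-day-old mouse testes, measured by whole-genome bisulfite sequencing. The 2 controls, Np95fl/fl, carry the floxed gene, and so do the 2 knockouts, Np95fl/fl:Stra8-Cre, which in addition carry Stra8-Cre, a recombinase under the promoter of a gene that is switched on in premeiotic male germ cells. Cells in which Cre did not act, and somatic cells left after the mesh filter, would keep an intact Np95, and their share is not known here. Whether each sample is a separate animal or pool is not stated. The label of male germ cells was not checked, since levels of methylation do not measure marker genes.

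CpG methylation is copied after each replication. Np95, also named Uhrf1, binds CpGs that are methylated on the old strand alone and recruits the methyltransferase Dnmt1, which methylates the new strand. Without this step each round of replication dilutes the mark. In most mammalian tissues the bulk of the genome is highly methylated, and CpG islands, dense groups of CpGs that often lie at gene starts, are mostly free of it.

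Most of the sequence in the chosen windows lies outside gene starts, and no genome sequence was used here. RefSeq promoters of GRCm38.p6, the same build as mm10, show the kinds of site that were found where a chosen window did hold a gene start. They run from 250 bases before to 50 after the start, 5′ to 3′ on the gene's strand, with each CG dinucleotide in capitals. All 109910 listed cytosines inside the promoters of eligible windows fell on a CG of these sequences. Of the promoters in eligible windows 92.4% hold at least 1 CG. The 6 shown were picked after their values were seen, 4 of them methylated in controls and 2 not. Mrgprx1 (chr7:48027548-48027847, minus strand), a sensory neuron receptor gene, lies in the window that retained the least. Krt14 (chr11:100205981-100206280, minus) and Krt5 (chr15:101712856-101713155, minus) encode the keratin pair of basal epidermal cells. Ccl1 (chr11:82179763-82180062, minus) encodes a chemokine.
Mrgprx1: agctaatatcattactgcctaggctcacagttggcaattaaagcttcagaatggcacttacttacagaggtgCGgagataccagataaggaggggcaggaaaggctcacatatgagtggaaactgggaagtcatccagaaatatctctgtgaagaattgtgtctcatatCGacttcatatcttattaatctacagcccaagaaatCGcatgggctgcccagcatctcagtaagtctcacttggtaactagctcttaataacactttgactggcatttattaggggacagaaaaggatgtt
Krt14: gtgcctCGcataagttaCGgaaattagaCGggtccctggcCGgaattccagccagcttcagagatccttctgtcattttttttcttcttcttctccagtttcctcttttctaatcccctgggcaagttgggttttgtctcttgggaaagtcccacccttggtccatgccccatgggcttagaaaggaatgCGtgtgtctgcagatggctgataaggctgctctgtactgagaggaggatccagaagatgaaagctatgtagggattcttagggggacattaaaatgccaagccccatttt
Krt5: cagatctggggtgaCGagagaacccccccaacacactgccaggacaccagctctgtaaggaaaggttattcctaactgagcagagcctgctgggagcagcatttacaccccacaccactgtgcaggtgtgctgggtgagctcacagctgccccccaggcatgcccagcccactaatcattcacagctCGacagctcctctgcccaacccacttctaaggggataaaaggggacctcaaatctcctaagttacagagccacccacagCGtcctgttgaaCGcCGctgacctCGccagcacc
Ccl1: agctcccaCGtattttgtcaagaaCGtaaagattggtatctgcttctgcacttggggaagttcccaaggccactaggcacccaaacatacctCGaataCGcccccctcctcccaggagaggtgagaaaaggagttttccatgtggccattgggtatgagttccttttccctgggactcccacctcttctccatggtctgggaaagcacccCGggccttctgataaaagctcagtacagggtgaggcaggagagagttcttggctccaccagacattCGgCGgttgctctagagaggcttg
The unmethylated promoters belong to Asic2 (chr11:81968347-81968646, minus), an acid-sensing ion channel gene, and Slc6a11 (chr6:114130991-114131290, plus), a GABA transporter gene.
Asic2: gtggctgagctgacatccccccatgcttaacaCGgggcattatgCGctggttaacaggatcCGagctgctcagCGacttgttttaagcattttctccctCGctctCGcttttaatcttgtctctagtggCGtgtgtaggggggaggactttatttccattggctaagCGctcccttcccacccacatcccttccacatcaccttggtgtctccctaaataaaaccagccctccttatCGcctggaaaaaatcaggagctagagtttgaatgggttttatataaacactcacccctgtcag
Slc6a11: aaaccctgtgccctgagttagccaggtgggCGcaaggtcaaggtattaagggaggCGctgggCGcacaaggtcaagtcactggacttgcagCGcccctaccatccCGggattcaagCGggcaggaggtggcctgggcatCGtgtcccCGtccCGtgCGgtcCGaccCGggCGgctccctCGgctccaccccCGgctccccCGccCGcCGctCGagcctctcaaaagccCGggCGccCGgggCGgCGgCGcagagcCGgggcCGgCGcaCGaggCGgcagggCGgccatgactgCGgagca

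In the 4 methylated promoters the knockouts lay far below the controls. Over 14 cytosines the Ccl1 promoter was at 86.6% and 88.7% in controls and 34.5% and 46.5% in knockouts. The Krt5 promoter, with 11 cytosines, was at 82.2% and 87.7% in controls and 32.9% and 33.7% in knockouts. The Krt14 promoter, with 7 cytosines, was at 85.0% and 85.3% in controls and 32.7% and 38.3% in knockouts. At these promoters no knockout value came near a control value, and the same held for Mrgprx1, where the 2 measured cytosines averaged 78.9% and 90.9% in controls and 22.1% and 37.5% in knockouts. The promoter of Slc6a11, with 32 CpGs and 64 measured cytosines, was at 1.56% and 1.26% in controls and 2.48% and 1.23% in knockouts. That of Asic2, with 9 CpGs, was at 2.60% and 1.03% in controls and 1.96% and 1.00% in knockouts. In both, the ranges of the groups overlapped.

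The levels of the chosen windows, which the rule itself used, are a description and carry no test. In control replicate 1 the chosen windows ranged from 70.2% to 88.6% with a median of 81.4%, and in control replicate 2 from 70.9% to 92.7% with a median of 86.3%. In knockout replicate 1 they ranged from 30.4% to 45.5% with a median of 41.1%, and in knockout replicate 2 from 31.5% to 47.2% with a median of 42.3%. The highest knockout window was thus below the lowest control window. The groups did not overlap in any of the 1494 chosen windows, nor in any of the 14346 eligible ones. By limma 23794 of 23816 windows were lower in knockouts, 99.9%, and all 1494 chosen windows were among them. The rule used this contrast, so nothing is read from that count.

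The chosen windows form one edge of a narrow distribution. Their retained share ranged from 40.5% to 51.4% with a median of 49.9%, against a median of 53.1% in the eligible windows that were not chosen, whose middle 90% lay between 50.6% and 58.1%. Over all eligible windows the SD of the retained share was 2.54 points, and the SD of the difference between the pairs within a window was 1.74 points. The retained shares of the pairs had a Pearson correlation of 0.789 over the 14346 windows, which share the same positions and the same 4 libraries. Pair 1 decided most of the choice: 1624 windows (11.3%) were at or under the limit in pair 1 and 7022 (48.9%) in pair 2. Control replicate 1 was lower than control replicate 2 in 1484 of the chosen windows and in 14237 of the eligible ones. The number chosen moved widely when a library was left out. With the remaining group means held to the same limit, 8141 windows were chosen without control replicate 1, 946 without control replicate 2, 3484 without knockout replicate 1 and 4530 without knockout replicate 2. With the numbers crossed (knockout replicate 1 over control replicate 2, and 2 over 1) 807 windows were chosen, 449 of them the same windows.

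**Figure D1:**
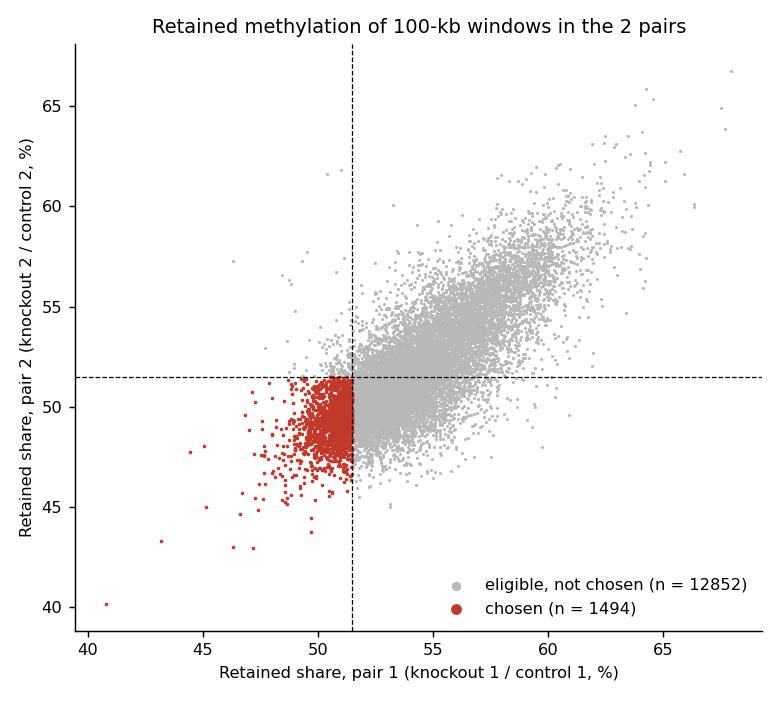
Retained share of each eligible 100-kb window in pair 1 (x axis, %) and pair 2 (y axis, %), with the 1494 chosen windows in red, the 12852 others in grey and the limit of 51.5% dashed. The vertical limit cuts off the left edge of the cloud, with 11.3% of windows at or under it, and the horizontal one passes through its middle, with 48.9%.

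At the limit, chosen windows and those left out could hardly be told apart. The 3 windows just inside had a higher pair ratio of 51.4974%, 51.4972% and 51.4970%. They lay on chromosome 2 at 147700001 to 147800000, on chromosome 19 at 35400001 to 35500000 and on chromosome 13 at 10000001 to 10100000 within Chrm3, a muscarinic acetylcholine receptor gene. The 3 just outside had 51.5007%, 51.5012% and 51.5023%. They lay on chromosome 16 at 9700001 to 9800000 within Grin2a, which encodes an NMDA receptor subunit, on chromosome 2 at 78200001 to 78300000 with Gm14461, a predicted gene, and on chromosome 15 at 86600001 to 86700000.

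Cytosines without a value in every sample played no part in the choice and gave a similar picture in the same libraries. On these the chosen windows had a median retained share of 50.6% and the others 52.9%. They were at or under 51.5% in 1097 chosen windows (73.4%) and in 3496 of the others (27.2%). In each chosen window, every sample had at least 82 such cytosines, with a median of 237 for the sample that had fewest.

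The 10 lowest windows lay on chromosomes 7, 2 and 13, with 7 of them on chromosome 7. The lowest was at 48000001 to 48100000 on chromosome 7, at 78.0% and 80.4% in controls and 31.8% and 32.3% in knockouts, a retained share of 40.5% over 269 cytosines. The window before it (47900001 to 48000000) was at 70.3% and 72.7% in controls and 30.4% and 31.5% in knockouts, and retained 43.2%. They hold Mrgprx1 and Mrgpra4, from a family of Mas-related receptors of itch and pain neurons. In the first, all 10 pieces of 10 kb retained between 36.3% and 43.1%. That window was picked as the lowest on these same cytosines, so low values in its pieces were built in. Of 6 protein-coding Mrgpr genes with a midpoint in an eligible window only Mrgprx1 and Mrgpra4 lay in chosen windows. The window of Mrgpra9, at 47200001 to 47300000, retained 54.1%, so the low values did not extend over the whole family. Other windows of this cluster, among them those of Mrgpra1, Mrgpra3, Mrgprb2 and Mrgprb3, were not eligible and are not described.

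Most of the other lowest windows were free of protein-coding genes. The window at 40000001 to 40100000 on chromosome 7 was at 83.2% and 89.2% in controls and 38.5% and 38.4% in knockouts, retained 44.6%, and lay 419 kb from the nearest protein-coding gene. Those at 53100001 to 53200000 and 53400001 to 53500000 retained 45.0% and 45.1% and lay 1084 and 1335 kb from one. Windows at 36500001 to 36600000 (46.2%) and 54600001 to 54700000 (46.3%) complete those on this chromosome. On chromosome 2 the window at 97500001 to 97600000, within Lrrc4c, which encodes a netrin-G ligand of synapses, was at 81.8% and 87.5% in controls and 38.1% and 39.1% in knockouts and retained 45.6%. The window at 161800001 to 161900000 within Ptprt, a receptor tyrosine phosphatase gene, was at 83.9% and 89.9% in controls and 39.8% and 40.3% in knockouts and retained 46.1%. In each of these windows both knockouts were far below both controls, and the groups overlapped in no other eligible window either. The window at 110600001 to 110700000 on chromosome 13 stood apart in its controls, 85.5% and 75.3%, with knockouts at 38.0% and 35.9%, and is one of 10 chosen windows in which control replicate 1 was not the lower control. Its retained share of 46.0% was 49.1% without control replicate 1 and 43.2% without control replicate 2. The windows at 53400001 and 97500001 rest on 154 and 243 cytosines, and the latter retained 52.4% on the cytosines that the rule did not use.

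Most chosen windows stood alone, and 494 (33.1%) lay next to another chosen window. The 1494 windows formed 1203 stretches, of which 1000 were a single window, 151 were 2 windows and 52 were 3 or more. Of 1160 chosen windows followed by an eligible window, 291 (25.1%) were followed by a chosen one. Over all eligible windows 10.4% were chosen. Eligible windows that were not chosen retained a median of 52.0% when directly next to a chosen window and 54.0% when more than 20 windows away. The median control level moved with this distance too, from 81.7% to 79.5%, and its part in the result was not tested.

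The 5 longest runs were 600 to 900 kb long and held few genes. On chromosome 9 a run of 9 windows (28500001 to 29400000) covered the end of Opcml and the start of its neighbour Ntm in coordinate order, both genes of IgLON cell adhesion proteins of neurons. It was at 84.6% and 90.2% in controls and 42.7% and 44.3% in knockouts, and retained 49.8%. A run of 9 windows on chromosome 18 (81000001 to 81900000) without a protein-coding gene was at 81.2% and 84.1% in controls and 40.6% and 41.1% in knockouts, and retained 49.4%. The lowest of the 5 was a run of 7 windows on chromosome 7 (39600001 to 40300000), also without a protein-coding gene, at 79.5% and 84.7% in controls and 38.6% and 38.9% in knockouts, with 47.2% retained. In every run both knockouts stayed far below both controls, which is not particular to runs, since the groups overlapped in no eligible window. A run of 7 windows on chromosome 2 (178600001 to 179300000) had no protein-coding gene and retained 48.5%, and one of 6 windows on chromosome 7 (36700001 to 37300000) held Tshz3, a zinc finger transcription factor gene, and retained 48.8%.

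**Figure D2:**
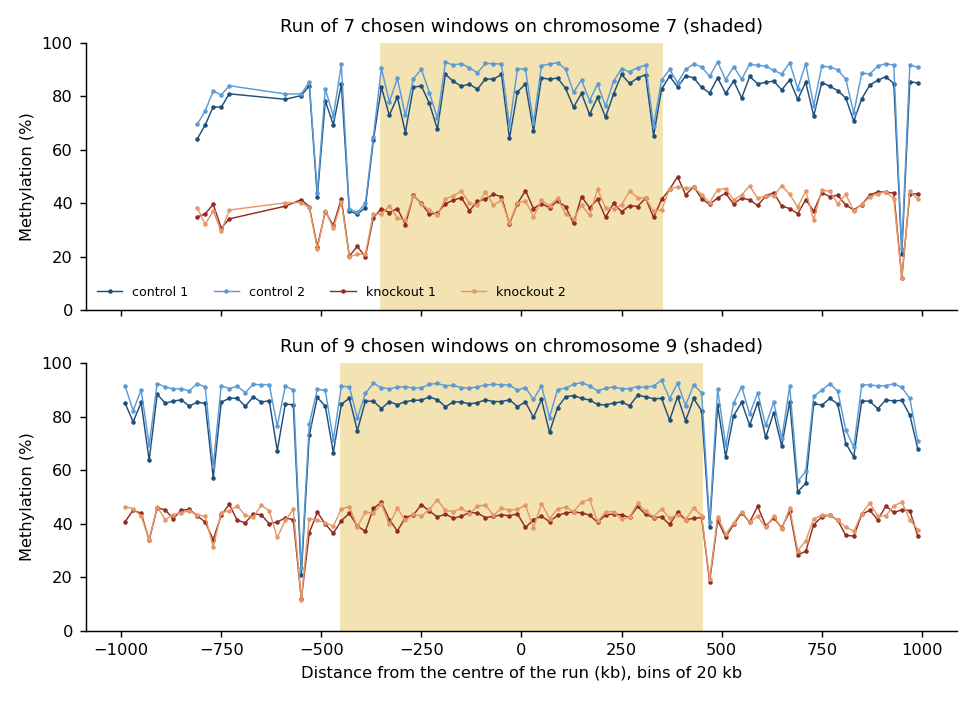
Methylation (%) in bins of 20 kb around the runs on chromosome 7 (7 windows) and chromosome 9 (9 windows), with distance from the centre of each run in kb, 1 line per sample, and the run shaded. On chromosome 7 the run retained 47.3% and the plotted flanks 49.6%, and on chromosome 9 49.8% and 50.6%. The flanks are not free of chosen windows: those on chromosome 7 hold the chosen run at 40400001 to 40800000. Controls were at 79.4% and 84.6% in the chromosome 7 run and 69.9% and 74.3% in its flanks. On chromosome 9 both controls were lower in the flanks too. The part of the control level in these differences was not tested.

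Chromosome 7 held the largest share of chosen windows and chromosome 10 the smallest. On chromosome 7 they were 131 of 741 eligible windows (17.7%), on chromosome 8 117 of 790 (14.8%), on chromosome 19 45 of 328 (13.7%) and on chromosome 10 44 of 762 (5.77%). The share of chromosome 7 was above that of all eligible windows by 7.26 points. Without knockout replicate 1 it was above by 4.05 points, where 24.3% of all eligible windows were chosen. The excess was 4.80 points without control replicate 1 (51.6% chosen) and 11.5 without knockout replicate 2 (31.6% chosen). With crossed numbers (5.63% chosen) it was 3.42 points. It was 2.49 points with at least 500 CpGs (4.52% chosen), where eligible windows with fewer CpGs counted but could not be chosen. Between 30 and 60 Mb of chromosome 7 they made up 52 of 147 eligible windows (35.4%), against 79 of 594 (13.3%) on the rest of it. Among blocks of 10 Mb with at least 20 eligible windows, those with the highest shares were at 30 to 40 Mb of chromosome 7 with 19 of 33 (57.6%) and at 160 to 170 Mb of chromosome 2 with 23 of 61 (37.7%). Along the chromosomes, cut into 10 equal parts, the share ranged from 6.74% in part 2 from the centromere to 12.9% in part 9. Windows are not replicates, so none of these shares was tested.

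**Figure D3:**
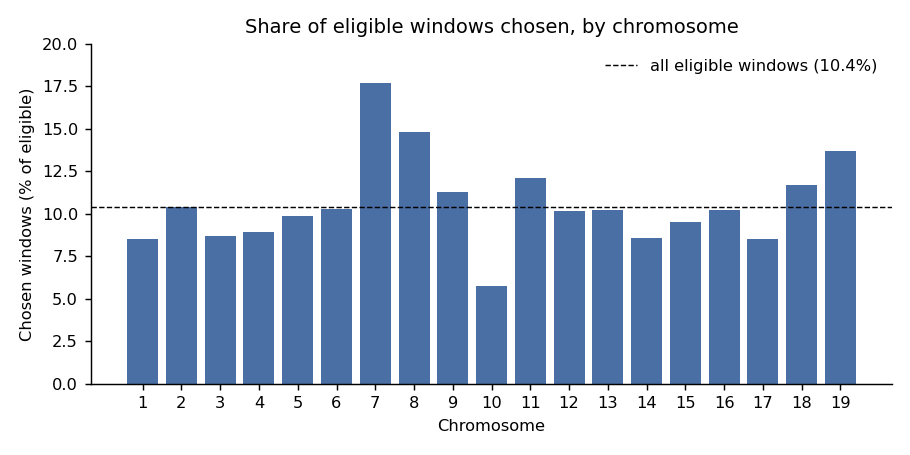
Share of eligible 100-kb windows that were chosen (y axis, %) for each autosome, with the share over all eligible windows, 10.4%, dashed. Chromosome 7 stands highest at 17.7% and chromosome 10 lowest at 5.77%.

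Gene content differed from that of the other eligible windows mainly at gene ends. Only 311 chosen windows (20.8%) contained the start or end of a protein-coding gene, against 35.5% of the other eligible windows. No protein-coding gene overlapped 737 of the chosen windows (49.3%, against 43.5% of the others), and 460 (30.8%, against 22.1%) lay wholly inside protein-coding genes. No annotated gene of any kind overlapped 322 (21.6%, against 18.8%). The median share of a window covered by genes of any kind was 43.0% in chosen windows and 48.6% in the others. Of eligible windows without a gene end 12.5% were chosen, falling to 8.61% with 1 end, 5.48% with 2 and 3.11% with 3, and 6.13% with 5 or more. Windows with gene ends also had lower control levels, with a median of 81.7% without an end and 77.6% with 3. Within quintiles of the control level the share was 18.5% without and 7.07% with a gene end in the highest quintile, but 3.40% without and 4.69% with one in the lowest, so the order held at higher levels and turned at the lowest.

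CpG islands, defined here by 30 or more listed CpGs in 500 bp, were present in 106 chosen windows (7.10%) and in 17.1% of the others. The share chosen fell from 11.5% of windows without an island to 5.07% with 1 and 2.53% with 2. Median control levels fell in the same order, 81.9%, 77.0% and 74.8%. The 12314 island cytosines in chosen windows averaged 3.77% and 3.81% in controls and 3.16% and 2.97% in knockouts, so these islands were nearly free of methylation in every sample. Pseudogenes overlapped 15% of the chosen windows and 24.5% of the others, and long non-coding RNA genes 37.1% and 37.0%.

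**Figure D4:**
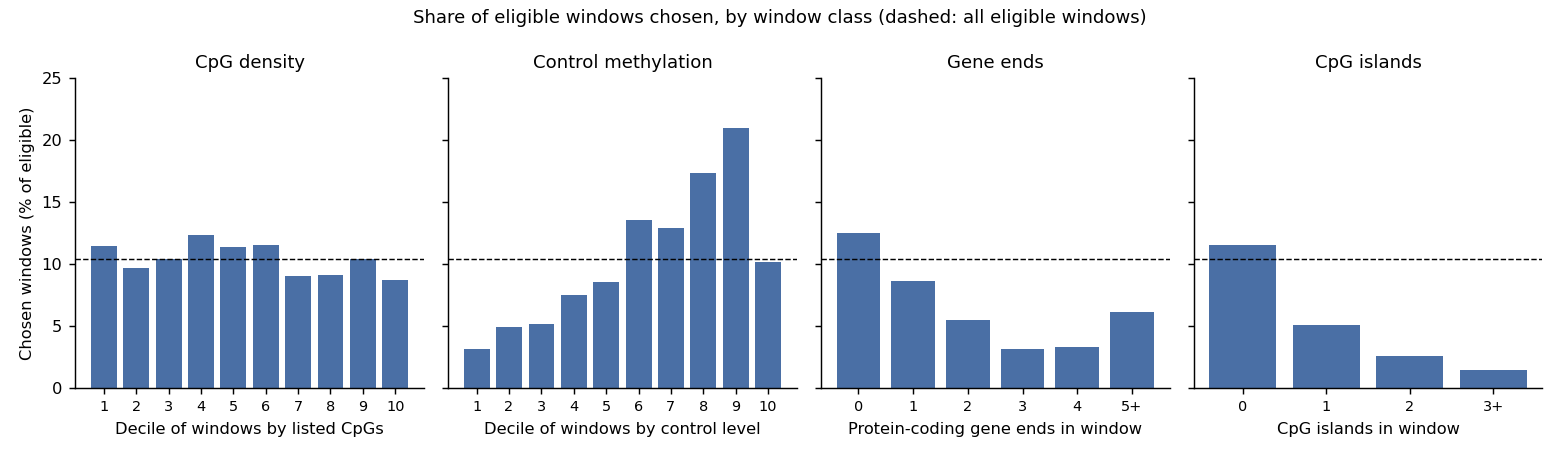
Share of eligible windows that were chosen (y axis, %) by decile of listed CpGs, decile of the mean control level, number of protein-coding gene ends and number of CpG islands, with 10.4% dashed. The share is nearly level across CpG density, rises with the control level to 21.0% in decile 9 and 10.2% in decile 10, and is lower in every class with a gene end or an island than without. The control level is also the denominator of both ratios in the rule.

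Inside genes, windows of the longest genes were chosen most often. Of windows wholly inside a gene 33 of 460 (7.17%) were chosen in genes under 200 kb, 96 of 966 (9.94%) in genes of 200 to 400 kb, 134 of 964 (13.9%) in genes of 400 to 800 kb and 193 of 847 (22.8%) in longer genes. The median control level was 86.6% in the first of these classes and 83.7% in the last. Of windows fully covered by protein-coding genes 13.9% were chosen, against 11.7% of windows with no such cover. Among windows without a gene end this order turned in the upper 2 of the 5 quintiles of the control level, with 16.2% inside against 18.5% outside and, in the highest, 14.8% against 26.0%. It also turned without control replicate 1, by -1.39 points, and without knockout replicate 1, by -0.120 points.

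The 15 protein-coding genes with the most sequence in chosen windows were between 895 and 2241 kb long, and a ranking by sequence can only return long genes. Opcml had 9 of its 11 eligible windows chosen, and over its 7085 cytosines it was at 79.2% and 84.5% in controls and 40.3% and 41.5% in knockouts. Lsamp, another IgLON gene, had 8 of 20 windows chosen, and Ntm 6 of 9. Rbfox1, which encodes a splicing regulator of neurons and muscle, had 8 of 16 windows chosen and was at 81.9% and 87.4% in controls and 42.2% and 43.3% in knockouts. Ptprt had 7 of 11 windows chosen and was at 83.4% and 88.3% in controls and 42.3% and 42.8% in knockouts. In none of these genes did a knockout come near a control, and the groups overlapped in none of the 14346 eligible windows either.

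The other 10 of these genes had between 26.1% and 60% of their eligible windows chosen. They were Dpp10, a potassium channel subunit gene (7 of 15 windows), Astn2, an astrotactin gene (6 of 10), Cntnap2, a neurexin relative (6 of 23), Csmd1 (6 of 17), Dcc, the netrin receptor gene (6 of 11), Nrxn3, a neurexin gene (6 of 16), Agbl1 (6 of 10), Ctnna2, a neuronal alpha catenin gene (5 of 10), Sgcd, a muscle sarcoglycan gene (5 of 10), and Tenm2, a teneurin gene (5 of 12). Over the whole gene the 15 retained between 49.5% (Ptprt) and 51.6% (Cntnap2). Of 236 protein-coding genes with at least 5 eligible windows, 107 had none chosen and 22 had 50% or more chosen. Rbfox3, whose product NeuN marks neurons, had 4 of 5 windows chosen, the 5 retaining from 46.8% to 50.9%, and was named after its values were seen.

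Families were counted by gene midpoints, of which 468 of 7151 in eligible windows (6.54%) lay in chosen windows. Keratin genes, which encode the intermediate filaments of epithelia, had 22 of 31 midpoints (71.0%) there. The genes share windows, so this rests on 6 of 9 eligible windows. On chromosome 11 the window at 100100001 to 100200000, with Krt13, Krt15, Krt19, Krt36 and Krt9, was at 80.5% and 85.7% in controls and 41.0% and 41.5% in knockouts. The next window, with Krt14, Krt16, Krt17 and Krt42, was at 80.2% and 84.7% in controls and 41.1% and 42.2% in knockouts. On chromosome 15 the window at 101700001 to 101800000, with Krt5, Krt71, Krt72 and Krt73, was at 79.1% and 82.7% in controls and 40.1% and 41.5% in knockouts. Across the 9 keratin windows the retained share was between 49.3% and 51.6%, so the 3 that were not chosen lay close to the limit as well. The count was 34 without control replicate 1, where more windows were eligible and 49.0% of them were chosen. It was 14 without control replicate 2 (6.58% chosen), 27 without knockout replicate 1 (24.3%) and 29 without knockout replicate 2 (31.6%). With crossed numbers (5.63%) it was 11, and with the lowest decile of each pair as the limit (4.06%) it was 9. Under the rule 10.4% were chosen, and the count moved with this share. Of 11 eligible windows with genes of keratin-associated hair proteins, some of them between the keratin genes of chromosome 11, 1 was chosen. The keratin and keratin-associated families were singled out after their values were seen.

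Gene lists for channels, receptors and adhesion proteins of neurons each had a higher share than 6.54%. Each list holds few genes, as do the ribosomal and cell marker lists below, so these shares are not read against 6.54%. The counts were 6 of 40 for potassium channels (15%, among them Kcnj3, Kcnh5, Kcnh7 and Kcnn2), 2 of 7 for GABA receptor subunits (Gabra5 and Gabrb2, in windows retaining 48.7% and 48.3%), 2 of 16 for glutamate receptor subunits (Gria2 and Grm3), 3 of 14 for cadherins and protocadherins (Cdh4, Cdh8 and Pcdh7) and 4 of 27 for synaptic adhesion genes (Cntnap5c, Nlgn1, Nrxn3 and Opcml). These lists hold many long genes, and gene length moved with the share chosen, as given above. Solute carriers had 10 of 127 (7.87%).

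Several other families had a lower share or none. Olfactory receptors had 25 of 558 midpoints there (4.48%), in 8 of 163 windows, vomeronasal receptors 3 of 100, Zfp zinc finger genes 1 of 72 (Zfp423) and cytochrome P450 genes 1 of 42 (Cyp2b19). Serpins (of 41) and beta-defensins (of 32) had 0, and so did the 7 ribosomal protein genes, too few to be read against 6.54%. Genes of a family can share windows. Except for the olfactory receptors, the number of windows behind these counts is not given. The vomeronasal genes Vmn1r78, Vmn1r79 and Vmn1r80 shared a window on chromosome 7 that retained 46.8%. On chromosome 11 the chemokine genes Ccl2, Ccl7 and Ccl11 shared a window at 84.9% and 90.7% in controls and 42.4% and 44.3% in knockouts, in a run of 4 chosen windows with Asic2, and were named after their values were seen. Of 6 eligible windows with Ccl genes 2 were chosen, with 6 of 14 genes, and the highest of the 6 retained 54.7%.

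Few genes of the germ line itself had a midpoint in an eligible window. Of the meiotic list 14 genes had a midpoint in an eligible window and 0 in a chosen one, and for spermatogonial genes these counts were 5 and 0. Of 6 spermatid genes 1 was in a chosen window, Spaca7, an acrosome gene. Of the markers of other testicular cells, 1 of 5 for Sertoli cells (Clu), 1 of 4 for peritubular and endothelial cells (Pdgfrb), 0 of 5 for Leydig cells and 0 of 4 for immune cells lay there. These lists are too short to be read against 6.54%.

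The density of CpGs was nearly the same in chosen windows and in the rest. The median was 610 listed CpGs per 100 kb in chosen windows and 637 in the others, and by decile of CpG density the share chosen was between 8.74% and 12.3%, without an order. The number of measured cytosines, with medians of 629 and 632, did not differ much either. CpGs of chosen windows were more often isolated, with no other CpG within 35 bp, at a median of 57.4% of listed CpGs against 53.4%. The control level moved with the choice: 3.14% of windows were chosen in decile 1 of the control level, 21.0% in decile 9 and 10.2% in decile 10.

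Split by CpG spacing, the same cytosines that the rule used gave a lower retained share in chosen windows at every spacing, as a description. Isolated CpGs of chosen windows were at 82.0% and 87.5% in controls and 40.9% and 42.1% in knockouts and retained 48.9%, against 51.9% in the other windows. CpGs with 3 or more neighbours were at 66.8% and 69.4% in controls and 35.4% and 36.5% in knockouts and retained 52.8%, against 59.6%. In both kinds of window the retained share thus rose with closer neighbours. Weighting the spacing classes of the chosen windows as in the others gave a retained share of 49.9%, against 53.7%. The rule held chosen windows low on these same cytosines, so a low value was built in. The part of CpG spacing in the difference was not tested.

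**Figure D5:**
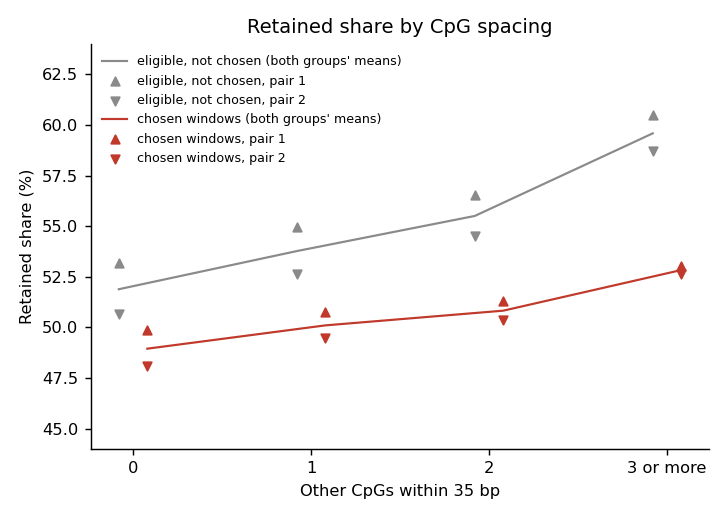
Retained share (y axis, %) by the number of other CpGs within 35 bp, in chosen windows (red) and other eligible windows (grey). Lines are from group means and triangles show each pair. Chosen windows lie lower at every spacing, from 48.9% to 52.8%.

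Inside and outside protein-coding genes, chosen windows kept the same level. The values in this paragraph are from cytosines that the rule used, and are a description. Cytosines inside genes were at 80.4% and 85.3% in controls and 40.7% and 41.9% in knockouts, and those outside at 80.3% and 85.0% in controls and 40.6% and 41.8% in knockouts, with 49.8% retained in both. In the other windows 54.4% was retained inside and 52.8% outside. By level, 68.8% and 81.3% of cytosines in chosen windows were methylated at 80% or more in controls and 1.24% and 1.41% in knockouts. In the other windows 2.52% and 2.60% remained at that level in knockouts. Between 20% and 80% lay 85.2% and 86.5% of the cytosines of chosen windows in knockouts, and 84.7% and 84.8% of those of the others, so intermediate levels prevailed in both. Of 13620 pieces of 10 kb in chosen windows with at least 20 cytosines, 72.1% retained 51.5% or less, against 35.3% of 116430 pieces in the others. The rule held chosen windows at or under this limit, so a higher share of their pieces was built in.

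Promoters in chosen windows were more often methylated in controls than promoters elsewhere. Of 245 with at least 4 measured cytosines 118 (48.2%) were at 70% or more in controls and 99 (40.4%) under 20%. In the other windows these shares were 30.3% and 64.4% of 3393. Chosen windows also had a higher median control level (84.0% against 80.5%) and held an island less often, and the part of these was not tested. The methylated promoters in chosen windows had medians of 87.1% in controls and 41.1% in knockouts. Their median retained share was 47.3%, against 49.3% elsewhere. The rule used these cytosines in its window means, so this difference is a description and was partly built in. The unmethylated ones had medians of 1.29% in controls and 1.27% in knockouts, and 1 of the 99 was at 20% or more in knockouts, against 24 of 2186 in the other windows.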

How the data were processed

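Bisulfite libraries (PBAT, with adaptors added after conversion) of 2 Np95fl/fl and 2 Np95fl/fl:Stra8-Cre germ cell samples were used. The deposited table lists, for every CpG cytosine on either strand, the percent of its reads that were methylated. Its title names a minimum of 10 reads. The build was mm10, per the submitters' processing notes. Which aligner and caller were used: not given in the sources used here. Read depth behind each value is unknown, so no interval was computed.

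On the autosomes 36805041 cytosines are listed. Between 28863300 and 29616095 had a value in a sample, and 22379309 (60.8%) in all 4. A window's level was the mean over the latter. Each cytosine had the same weight. Gene positions came from a RefSeq table for GRCm38.p6.

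The limma 3.58.1 fit (R 4.3.3) covered the whole table of windows with 100 CpGs. It used a logit of each window's level with an offset of 0.01 and let the prior variance follow the level. A run on simulated data had losses in only a small part of the windows. In the data 99.9% of windows were lower, so that run does not check the count given here. Lower means a loss of at least 10 points at an adjusted p (Benjamini-Hochberg) under 0.05. The p-values of the fit rest on 2 samples a group, whose spread may be only technical. Shares of windows carry no test.

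The windows and gene lists were chosen with earlier results of these data known. Named were the 10 lowest windows, the 5 longest runs, the 3 windows on either side of the limit, the protein-coding genes in them, the 15 genes with the most sequence in chosen windows and list members. Tables were made with pandas 2.3.3 and NumPy 2.4.6 in Python 3.11.15, and figures with Matplotlib 3.10.9.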

Additional observations from a re-analysis of the deposited data

How the results depend on the processing

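The median retained share of the chosen windows stays just under the limit by construction and says nothing about stability. Their number did not hold. It was 911 with controls of at least 80%, 649 with 500 CpGs, 3901 for the ratio of group means, 4051 for windows of 50 kb, 411 for 200 kb, 807 with crossed numbers, and 583 with each pair's own lowest decile as the limit, which was added after seeing the data. With 1 sample left out it was 946 to 8141. The median CpG density was 543 with crossed numbers, 948 with 500 CpGs and 566 to 662 with 1 sample left out. The median share covered by genes, 43.0%, was 31.3% with crossed numbers, 45.9% with each pair's lowest decile, 40.2% with each sample on its own cytosines, 51.9% with 500 CpGs, 1.80% for protein-coding genes alone and 35.7% to 42.5% with 1 sample left out. The cause of these moves was not tested, except that fewer windows or samples enter some of them by construction. Windows with a gene end or island were chosen less often in all 12 alternatives on the same windows. One of these, a minimum of 50 CpGs, gave the same 1494 windows here by construction and adds nothing. The smallest differences were at 500 CpGs (-0.857 and -0.365 points, against -6.11 and -6.91 under the rule). Shares there were taken over all 14346 eligible windows, of which 6447 had 500 CpGs, and the rest could not be chosen. The differences at 500 CpGs thus cannot be set against those of the rule. Without control replicate 1 the differences were -20.6 and -30.4 points, where 51.6% of all eligible windows were chosen. They were -4.997 and -5.12 without control replicate 2 (6.56% chosen). When knockout replicate 1 was left out they were -15.1 and -19.3 (24.3% chosen), and -15.9 and -20.2 when it was knockout replicate 2 (31.6% chosen). Under the rule 10.4% were chosen, and the size of the differences moved with this share. The order of windows inside against outside genes turned without control replicate 1 (-1.39 points) and knockout replicate 1 (-0.120 points), in a range of -1.39 to 2.29 points with 1 sample left out. With 500 CpGs limma called 12485 windows lower, of 12504 tested. With the replicate block it called 23794, as without it, and leaving out 1 sample gave 23766 to 23794. The replicate numbers are not stated to pair the samples, and differences between replicates of controls and of knockouts had a correlation of 0.0888 over windows. The unknown read depth limits each cytosine's precision.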

Other observations

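The X chromosome was outside the rule. Of its 544 windows with listed cytosines, which end at 60.5 Mb, 99 had at least 100 CpGs measured and 17 also had both controls at 70% or more. None of these 17 met the limit (0 windows), and the median retained share of the 99 was 58.6%.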
